A study of Caenorhabditis elegans with 4 samples.

Results

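set-24, Y57A10A.2 and Y57A10A.5 are 3 protein-coding genes that lie within one short region of chromosome II and were higher in L3 larvae lacking the H3K9 methyltransferases MET-2 and SET-25 than in wild type. They were taken by symbol, as 3 of the 46748 genes in the deposited count tables, and were chosen by their higher counts in the mutant. Their genotype difference is therefore described below and not tested. No fold threshold was part of the choice. Poly(A) RNA was sequenced from whole L3 larvae of the nematode Caenorhabditis elegans grown at 20°C on NGM plates. The libraries fall into 2 groups of 2: met-2 set-25 double mutants, whose strain in the methods is GW638 met-2(n4256) set-25(n5021), and wild type, strain N2. Each genotype is represented by 1 strain, and a whole larva mixes all tissues, so a change in the number of cells of a type cannot be told apart from a change in RNA per cell.

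H3K9 methylation is a histone mark of silent chromatin, and in C. elegans it is enriched on the arms of the autosomes and at repeated and silent genes. In embryos MET-2 and SET-25 place nearly all of it, through a catalytic SET domain that transfers methyl groups to lysine. set-24 encodes another protein with a SET domain, and loss of set-24 in C. elegans has been linked to a gradual loss of fertility over generations. Y57A10A.2 and Y57A10A.5 have no gene name beyond their sequence name, and no role is given for them here.

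Libraries carry the identifiers of their columns: rWQS029 and rWQS045 are met-2 set-25 larvae, rWQS019 and rWQS042 are wild type larvae. Their total counts ran from 22849521 to 56879896. The mutant libraries differed from each other more than the wild type libraries did, with 15.7% of tested genes over 2-fold apart between the mutant libraries and 5.38% between the wild type libraries. met-2 averaged 33.5 ± 2.52 CPM in the mutant and 58.9 ± 4.33 CPM in wild type, and set-25 averaged 11.6 ± 0.0541 CPM in the mutant and 14.5 ± 4.32 CPM in wild type (CPM, counts per 1000000 with TMM scaling, SD, n = 2 libraries each). Whole-gene counts do not show whether these transcripts were intact, so they check the labels only weakly. Markers of body wall muscle, pharynx, intestine, hypodermis, neurons and germline were all detected. edgeR's quasi-likelihood test called 0 of 15978 tested genes at an adjusted p under 0.05 in either direction (0% of genes). Without adjustment, 990 genes were higher (6.2%) and 618 lower (3.87%) at p under 0.05. DESeq2, which the methods name, called 412 of 16562 genes as higher (2.49%) and 136 as lower (0.821%). Below, "rose" means past DESeq2's adjusted p of 0.05.

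set-24 (WBGene00012845, chromosome II, 12114971 to 12130968 on the minus strand in WBcel235) was counted at 1268 and 1962 reads in the mutant libraries rWQS029 and rWQS045, against 188 and 509 reads in rWQS019 and rWQS042 of wild type. After scaling these were 32.1 and 44 CPM in met-2 set-25, against 8.17 and 8.91 CPM in wild type. The genotypes did not overlap, and the lower mutant library was 3.61 times the higher wild type library. The log2 fold change was 2.15 ± 0.284 (SE of the edgeR fit).

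Y57A10A.2 (WBGene00013247, 12147631 to 12150221, plus strand) had 1134 and 1420 reads in met-2 set-25, against 89 and 201 reads in wild type. On the CPM scale it stood at 28.7 and 31.8 in the mutant libraries, against 3.87 and 3.52 in the wild type libraries. Its mutant libraries were the closest together of the 3 genes on the log2 scale, and its difference between genotypes was the widest of the 3, with 3.04 ± 0.275 (SE) as the log2 fold change and 8.2 as the ratio of means.

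Y57A10A.5 (WBGene00013250, 12154486 to 12156812, plus strand) had 441 and 823 reads in met-2 set-25, against 81 and 176 reads in wild type. This gave 11.2 and 18.4 CPM in the mutant, with rWQS045 well above rWQS029, and 3.52 and 3.08 CPM in wild type. Again the genotypes did not overlap, with a log2 fold change of 2.17 ± 0.385 (SE).

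**Figure D1:**
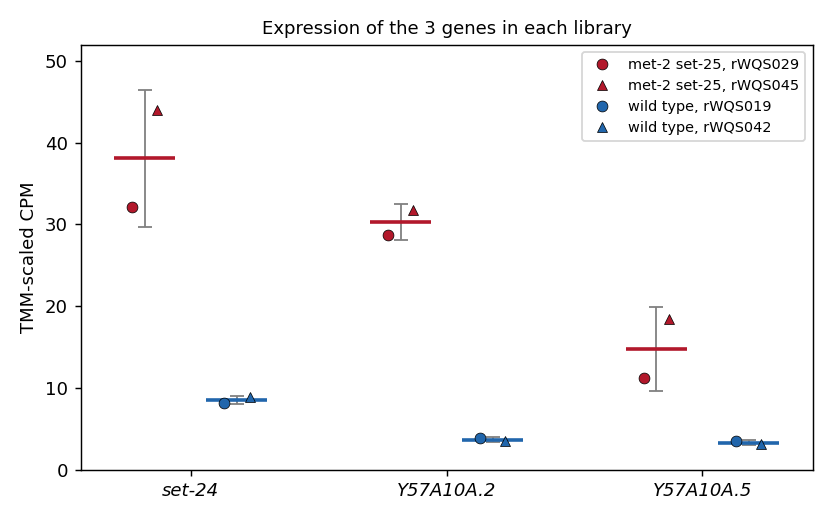
TMM-scaled CPM of set-24, Y57A10A.2 and Y57A10A.5. Each point is 1 library, red for met-2 set-25 and blue for wild type, the horizontal line is the mean and the bar is ± SD (n = 2 libraries). Every mutant library lies above every wild type library for all 3 genes, with set-24 at a mean of 38.1 CPM in the mutant against 8.54 CPM in wild type.

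All 3 genes passed the filter on low counts, and each was above its minimum of 0.235 CPM in all 4 libraries, so none entered the test through the mutant alone. None was silent in wild type. set-24 was expressed there above 43.9% of tested genes on the CPM scale, Y57A10A.2 above 31.7% and Y57A10A.5 above 30.2%. In the mutant the same genes stood above 71.4%, 66.7% and 53% of tested genes. Among all log2 fold changes, 1.08% of tested genes had a higher one than Y57A10A.2, 2.33% than Y57A10A.5 and 2.37% than set-24. Since these values chose the genes, the ranks describe them only. Both mutant libraries lay above both wild type libraries for 22.1% of all tested genes and below them for 21.1%. The log2 fold change was above 0 for 51.6%, and the lower mutant library was over 2 times the higher wild type library for 3.73%.

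Levels can be compared between the genes only per length of exon. Per kilobase, Y57A10A.2 was the highest of the 3 in the mutant, at a mean of 21.8 RPKM, with set-24 at 13.5 RPKM and Y57A10A.5 at 7.47 RPKM. In wild type the order was different, with set-24 at 3.03 RPKM, Y57A10A.2 at 2.65 RPKM and Y57A10A.5 at 1.67 RPKM. The ratio of Y57A10A.2 to set-24 was 1.81 and 1.47 in the mutant libraries, against 0.959 and 0.8 in the wild type libraries, so these groups did not overlap. The ratio of Y57A10A.5 to set-24 was 0.495 and 0.597 in the mutant, against 0.613 and 0.492 in wild type, and these groups did overlap. set-24 and Y57A10A.5 thus differed between genotypes by about the same factor, and Y57A10A.2 by more.

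The gene models differ. set-24 spreads 13 exons over 15998 bp, of which 17.6% is exon. Y57A10A.2 has 7 blocks of exon in 2591 bp and Y57A10A.5 has 8 in 2327 bp, with 53.7% and 85.2% of the span in exons. No exon of the 3 genes overlaps an exon of another annotated gene. Y43F11A.4, a short gene on the other strand, lies in an intron of set-24, and its count was 0 in all 4 libraries, as was that of Y43F11A.1, a gene of the same exon length (570 bp) beside set-24. A count of 0 allows up to 0.0672 to 0.076 CPM in the mutant libraries and 0.0525 to 0.13 CPM in the wild type libraries (3 counts, counting error only). If these 2 genes share sequence, the bound holds only if reads that match several places were counted. The sources used here do not give the treatment of such reads. The library kit does not mark strand, so reads from the 2 strands of a gene cannot be told apart.

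The 3 genes do not stand side by side: other annotated genes lie between them. These were not named in the choice. The 3 were chosen as neighbours that are higher together, so the region itself was part of the choice. From set-24 to the pseudogene Y57A10A.7, over 47.7 kb of chromosome II (12114971 to 12162661), there were 9 tested genes, namely the 3 genes and 6 others. Pseudogenes, which are degenerate copies of genes that are not expected to give a working protein, made up 5 of the 6. In all 9 genes both mutant libraries lay above both wild type libraries, as they did for 22.1% of all tested genes. By this criterion alone the run did not end with the stretch. It held 11 consecutive tested genes, with the nearest tested gene on each side added. In these flanking genes the lower mutant library was 1.04 times (left) and 1.56 times (right) the higher wild type library. In 8 of the 9 genes the lower mutant library was over 2 times the higher wild type library, the exception being Y57A10A.4. Against the 3.73% of all tested genes, 5 of the 6 others met the 2-fold criterion. Y57A10A.6 and Y57A10A.7 lie beyond Y57A10A.5 and not between the 3 genes. The stretch was bounded after its values were seen, so it is a description.

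Within 50 kb of the outermost of the 3 genes, 18 other genes were tested in edgeR, which called 0, with 6 higher and 0 lower at an unadjusted p under 0.05. DESeq2 called 5 of 19 as higher and 0 as lower, against 2.49% and 0.821% of all genes, and all 5 lie in the stretch. Of its 6 genes beside the 3, DESeq2 called 5 as higher and edgeR called 0, with 5 at an unadjusted edgeR p under 0.05. Their edgeR adjusted p ran from 0.0983 to 0.513. Their median log2 fold change was 1.89, against 0.02 over all tested genes and 0.09 over the 2627 tested genes of chromosome II. Over all 9 tested genes of the stretch the median was 2.15. Among 15751 other sets of 9 consecutive tested genes, 31 had a median at least as high, from 7 separate places. The highest of these medians was 3.07, on chromosome V. The median of the stretch includes the 3 chosen genes, and its ends were set after its values were seen. The count of 31 is therefore a description and no test of how rare the stretch is. Of the 5 DESeq2 calls, 1 remained without rWQS019, 2 without rWQS042, 2 without rWQS045 and 5 without rWQS029. Y57A10A.1 was the 1 gene called each time.

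Y43F11A.6, a pseudogene on the minus strand 561 bp beyond the 5′ end of set-24, was at 22.3 and 25.9 CPM in met-2 set-25, against 2.52 and 4.76 CPM in wild type. It rose by 2.71 ± 0.415 (SE) on the log2 scale, with an adjusted p of 2.76e-06 in DESeq2 and 0.144 in edgeR, and its DESeq2 call was lost without rWQS019 (0.0718). Y57A10A.1, the longest pseudogene of the stretch and the left neighbour of Y57A10A.2, was at 25.4 and 34.2 CPM in the mutant, against 5.43 and 4.1 CPM in wild type. It rose by 2.65 ± 0.328 (SE), with an adjusted p of 3.33e-08 in DESeq2 and 0.0983 in edgeR. The largest log2 fold changes of the stretch were thus next to one another, in Y43F11A.6, Y57A10A.1 and Y57A10A.2.

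The remaining pseudogenes were lower in level. Y57A10A.3 was at 5.85 and 7.24 CPM in met-2 set-25, against 1.96 and 1.86 CPM in wild type (log2 fold change 1.78, DESeq2 adjusted p = 0.0026, edgeR adjusted p = 0.212). Y57A10A.6 was at 5.6 and 7.96 CPM, against 2.61 and 1.35 CPM (log2 fold change 1.79, adjusted p = 0.0322 in DESeq2 and 0.336 in edgeR). Y57A10A.7 was at 7.63 and 11.9 CPM, against 2.83 and 2.08 CPM (log2 fold change 1.99, adjusted p = 0.00195 in DESeq2 and 0.222 in edgeR). These 3 rose by DESeq2, and each call was lost without rWQS019, without rWQS042 and without rWQS045. Over all 469 tested pseudogenes the median log2 fold change was 0.35, against 0.02 over all tested genes. Of the 469, 49 rose, a larger share than the 2.49% of all genes.

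Y57A10A.4, the protein-coding gene 98 bp upstream of Y57A10A.5, had the smallest log2 fold change of the 9. It was at 3.78 and 6.19 CPM in met-2 set-25, against 2.74 and 2 CPM in wild type, and its log2 fold change of 1.08 ± 0.429 (SE) did not pass in DESeq2 (adjusted p = 0.385) or edgeR (0.513). It lies between Y57A10A.3, 60 bp away, and Y57A10A.5, on the same strand as both. The gaps between the 7 plus-strand genes ran from 60 to 696 bp. The sources used here do not give the treatment of reads that match several near-identical copies, so the split of reads among genes and pseudogenes of the stretch is uncertain where they share sequence.

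**Figure D2:**
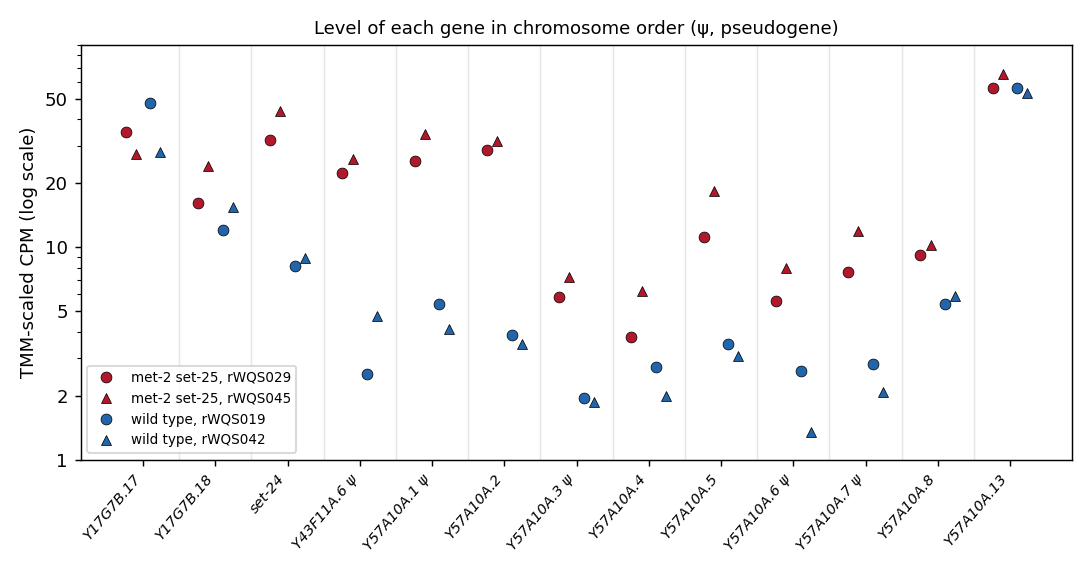
TMM-scaled CPM, on a log scale, of the tested genes from Y17G7B.17 to Y57A10A.13 in the order of the chromosome, with pseudogenes marked ψ. Each point is 1 library, red for met-2 set-25 and blue for wild type. From set-24 to Y57A10A.7 all red points lie above the blue points of the same gene. The same holds, by a smaller margin, for the flanking genes Y17G7B.18 and Y57A10A.8. Farther out, red and blue points overlap for Y17G7B.17 and lie close together for Y57A10A.13.

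Outside this stretch the difference was smaller on both sides. Within 50 kb of the outermost of the 3 genes there were 12 further tested genes, of which DESeq2 and edgeR called 0, with 1 at an unadjusted edgeR p under 0.05. Their log2 fold changes ran from -1.29 to 0.78 with a median of -0.08, and 5 of the 12 were above 0. On the left, Y17G7B.18, the nearest tested gene, was at 16.2 and 24.1 CPM in met-2 set-25, against 12.1 and 15.5 CPM in wild type, a log2 fold change of 0.54 ± 0.327 (SE, edgeR adjusted p = 0.638). Between it and set-24 lie the pseudogene Y17G7B.19, with counts of 0 and 2 in the mutant and 1 and 1 in wild type, and Y43F11A.1, with a count of 0 in every library. Farther left, Y17G7B.17 averaged 31.1 ± 5.26 CPM in the mutant and 38 ± 13.9 CPM in wild type, and cnt-1 averaged 61.9 ± 23.5 CPM in the mutant and 63.6 ± 6.64 CPM in wild type.

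On the right, Y57A10A.8 was at 9.15 and 10.2 CPM in met-2 set-25, against 5.43 and 5.87 CPM in wild type, a log2 fold change of 0.78 ± 0.296 (SE, edgeR adjusted p = 0.49). It is the gene with the unadjusted p under 0.05. rol-1, a cuticle collagen gene, did not pass the filter on low counts and had 2 and 110 reads in the mutant libraries, against 1 and 10 reads in the wild type libraries, so its level hung on rWQS045. Next to it, Y57A10A.13 stood at 56 and 65.4 CPM in the mutant, against 56 and 53.4 CPM in wild type (log2 fold change 0.15 ± 0.22). Its exons overlap the antisense RNA gene anr-2, and the 2 cannot be told apart without strand. Y57A10A.14 had a value of opposite sign, at 8.11 and 3.14 CPM in met-2 set-25, against 16.6 and 11 CPM in wild type (log2 fold change -1.29, edgeR adjusted p = 0.542). DESeq2 called it as lower only without rWQS029 (adjusted p = 0.000809).

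Farther to the right stand polg-1, the catalytic subunit of the mitochondrial DNA polymerase, trpp-5, a subunit of a vesicle tethering complex, and aqp-12, of the aquaporin family. Their log2 fold changes were 0.52, -0.12 and -0.38, with edgeR adjusted p of 0.642, 0.915 and 0.814. At the other edge of the window, arrd-8, an arrestin domain gene, had a log2 fold change of -1.26 ± 1.11 (SE), and Y17G7B.22 of -0.26 ± 0.535. Both were below 3 CPM in every library, and arrd-8 was 2.3 and 0.438 CPM in the wild type libraries.

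**Figure D3:**
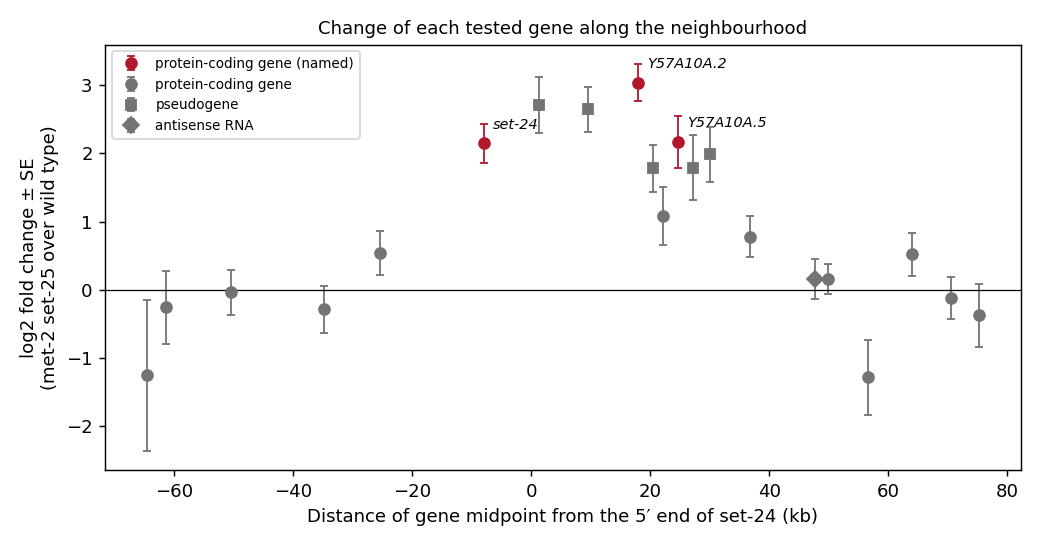
Log2 fold change of met-2 set-25 over wild type (± SE of the edgeR fit) for each tested gene within 50 kb of the outermost of the 3 genes, against the distance of the gene's midpoint from the 5′ end of set-24. Red points are set-24, Y57A10A.2 and Y57A10A.5, squares are pseudogenes. The 9 points from set-24 to Y57A10A.7 lie between 1.08 and 3.04, and the 12 others between -1.29 and 0.78.

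Added over the 3 genes, the level was 72.1 and 94.2 CPM in the mutant libraries, against 15.6 and 15.5 CPM in the wild type libraries. The 6 other genes of the stretch together stood at 70.6 and 93.4 CPM in the mutant, slightly below the 3 genes, against 18.1 and 16.1 CPM in wild type, above the 3 genes. The wild type libraries were thus close to each other in these sums, and rWQS045 was above rWQS029.

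The same order of the mutant libraries held gene by gene. All 9 genes were higher in rWQS045 than in rWQS029, by 0.15 to 0.72 on the log2 scale with a median of 0.45. For the 3 genes the difference was 0.45 for set-24, 0.15 for Y57A10A.2 and 0.72 for Y57A10A.5. Over all tested genes the quartiles of this difference were -0.4 and 0.38. In wild type 7 of the 9 were lower in rWQS042 than in rWQS019, within -0.95 to 0.92. With rWQS045 left out, the edgeR log2 fold changes of set-24, Y57A10A.2 and Y57A10A.5 were 1.91, 2.96 and 1.76. With rWQS029 left out they were 2.36, 3.1 and 2.48. The direction was therefore the same with either mutant library, while the sizes for set-24 and Y57A10A.5 depended on which one was used.

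To find genes with the most similar pattern, log2 CPM (with 0.5 added) was centred over the 4 libraries and the Euclidean distance to each of the 3 genes was taken. Since 4 values include the genotype difference, such a list holds genes of a like fold change and a like order of libraries, and the added 0.5 draws in genes at low levels. The closest gene to set-24 was T28A8.3 of chromosome III (distance 0.0211), at 22.7 and 30.4 CPM in met-2 set-25, against 5.57 and 6.09 CPM in wild type. The next was set-31 of chromosome V (0.067), another SET domain gene, followed by gln-5, a glutamine synthetase gene (0.0714), K02E7.12 (0.135) and Y51H4A.13 (0.148). K02E7.12 and Y51H4A.13 were both at 0.14 CPM or less in wild type, and their log2 fold changes were 3.96 and 4.69.

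For Y57A10A.2 the closest gene was fkb-8 of chromosome I (distance 0.0902), a gene of the FK506-binding family of prolyl isomerases, at 93.3 and 95.6 CPM in met-2 set-25, against 12.5 and 11.8 CPM in wild type. T28A8.5 (0.134), F37D6.3 (0.169), enu-3.3 (0.196) and the pseudogene Y102A5C.5 (0.208) followed. T28A8.3 and T28A8.5 are themselves close together on chromosome III. For Y57A10A.5 the closest was dsb-2 of chromosome II (0.0926), which promotes meiotic double-strand breaks, at 12.8 and 22.3 CPM in met-2 set-25, against 4.04 and 3.85 CPM in wild type. It was followed by W06B4.1 (0.157), K12D12.5 (0.168), C16C10.13 (0.171) and bath-28 (0.214). Among the 3 genes themselves, set-24 and Y57A10A.5 were 0.289 apart, and Y57A10A.2 was 0.844 from set-24 and 0.986 from Y57A10A.5. In the order of distance from set-24, Y57A10A.5 came at rank 23 and Y57A10A.2 at rank 282.

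set-24 belongs to the family of SET domain genes, many of which methylate histones. Of 32 other members tested, edgeR called 0, with 3 higher and 1 lower at an unadjusted p under 0.05 (6.2% and 3.87% of all genes). DESeq2 called 3 as higher and 0 as lower (2.49% and 0.821% of all genes). Their median log2 fold change was 0.30, against 0.02 over all tested genes, and 24 of the 32 were above 0 (51.6% of all genes). set-31 rose, at 80.2 and 110 CPM in met-2 set-25, against 20.7 and 21.6 CPM in wild type (log2 fold change 2.17 ± 0.265 SE, DESeq2 adjusted p = 1.36e-06, edgeR adjusted p = 0.0977). set-9, whose protein binds methylated H3K4 and which has the close paralog set-26, rose, at 52.8 and 75.7 CPM in met-2 set-25, against 4.09 and 9.67 CPM in wild type (log2 fold change 3.21 ± 0.51 SE, adjusted p = 9.95e-07 in DESeq2 and 0.154 in edgeR). Reads that set-9 and set-26 share could be split unevenly between them, and set-26 had a log2 fold change of 0.86.

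set-5 rose less, at 19.8 and 36.4 CPM in met-2 set-25, against 9.65 and 9.18 CPM in wild type (log2 fold change 1.58, adjusted p = 0.026 in DESeq2 and 0.29 in edgeR). The family member that was lower at an unadjusted p under 0.05 was met-2 itself, at 31.8 and 35.3 CPM in the mutant, against 62 and 55.8 CPM in wild type (log2 fold change -0.81, edgeR adjusted p = 0.342). set-32, a gene of inherited silencing, had a log2 fold change of 0.85 (edgeR adjusted p = 0.584). In the order of fold changes set-24 was the third in the family, behind set-9 and set-31 and ahead of set-5, and the intervals of ± SE of set-24 and set-31 overlapped. The DESeq2 count of 3 was 1 without rWQS019, 1 without rWQS042, 4 without rWQS029 and 2 without rWQS045. set-31 lost its call without rWQS019 (0.127) and without rWQS042 (0.0635), and set-5 without each library but rWQS029.

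**Figure D4:**
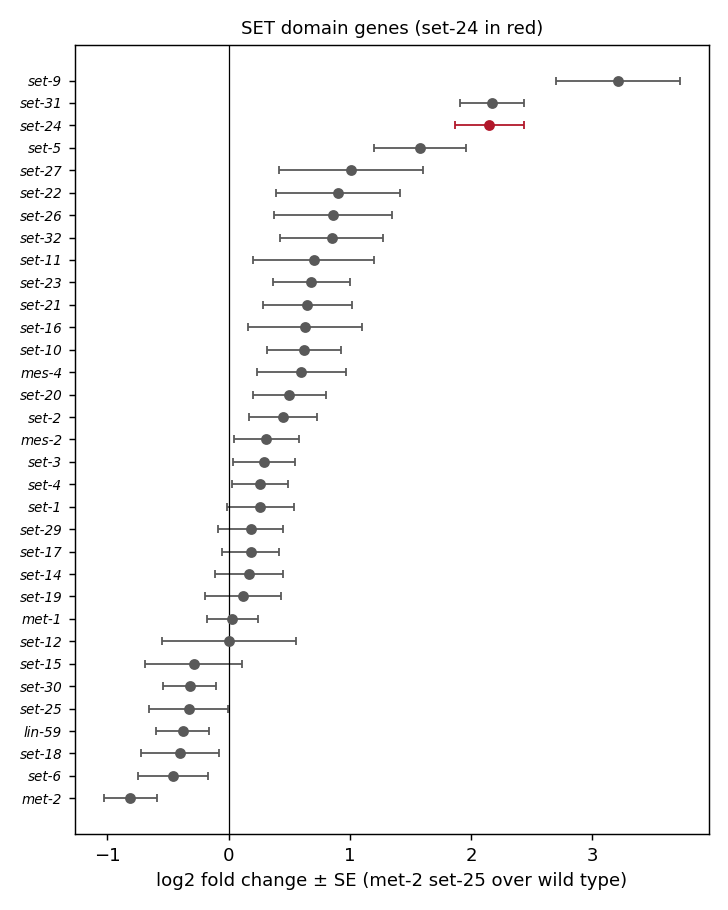
Log2 fold change of met-2 set-25 over wild type (± SE of the edgeR fit) for set-24, in red, and the 32 other tested SET domain genes, sorted by value. set-24 at 2.15 lies next to set-31 at 2.17, below set-9 at 3.21 and above set-5 at 1.58, and most of the family lies between -0.81 and 1.01.

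The next list holds genes of transgenerational silencing and germline immortality, the process with which set-24 has been linked. Of 29 tested, edgeR called 0, with 6 higher and 1 lower at an unadjusted p under 0.05 (6.2% and 3.87% of all genes). The 1 lower gene was met-2 itself. This list shares genes with that of SET domain genes, set-9 and met-2 among them, so the counts of the lists are not separate. DESeq2 called 6 as higher and 0 as lower (2.49% and 0.821% of all genes). The median log2 fold change was 0.45, and 24 of 29 were above 0 (51.6% of all genes). hrde-1, whose Argonaute protein carries inherited RNA interference in germline nuclei, was at 315 and 547 CPM in met-2 set-25, against 49.6 and 64.4 CPM in wild type (log2 fold change 2.92, DESeq2 adjusted p = 3.29e-08, edgeR adjusted p = 0.104). prg-1, the Piwi Argonaute gene, was at 303 and 626 CPM, against 57.5 and 62.8 CPM (log2 fold change 2.95, adjusted p = 2.96e-07 in DESeq2 and 0.133 in edgeR). wago-4 (log2 fold change 4.21), set-9, morc-1 and nrde-2 (1.28) were the other genes of the list that rose. morc-1 and nrde-2 lost their calls without rWQS019 and without rWQS042.

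Of 25 markers of germline and meiosis, 24 had a log2 fold change above 0 (51.6% of all genes), with a median of 1.56. edgeR called 0, with 15 higher and 0 lower at an unadjusted p under 0.05 (6.2% and 3.87% of all genes). DESeq2 called 11 as higher and 0 as lower (2.49% and 0.821% of all genes), and the number called as higher was 2 without rWQS019, 4 without rWQS042, 19 without rWQS029 and 8 without rWQS045. Their summed level was 1430 and 2840 CPM in the mutant libraries, against 662 and 700 CPM in the wild type libraries. rWQS045 was thus above rWQS029 for these markers too, by a median of 0.96 on the log2 scale, which is more than for any of the 3 genes. him-3, of the meiotic chromosome axis, had a log2 fold change of 3.87, syp-1, of the synaptonemal complex, of 3.23, mex-5, which encodes a zinc finger protein that binds RNA, of 2.58 and htp-1, also of the axis, of 2.59, and all 4 rose. mex-5 and htp-1 lost their calls without rWQS019 (DESeq2 adjusted p = 0.0509 and 0.0699). The part of the number of germ cells or of germline expression in the level of set-24, Y57A10A.2 and Y57A10A.5 was not tested. Nor was it tested for the silencing and immortality genes of the list before.

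Of 29 sperm genes found in the tables, 4 passed the filter, edgeR and DESeq2 called 0, with 0 at an unadjusted edgeR p under 0.05, and the summed level was 5.78 and 9.23 CPM in met-2 set-25, against 5.09 and 4.52 CPM in wild type. Of 19 genes of oocytes, yolk and the adult cuticle, 12 were tested, edgeR called 0 with 3 at an unadjusted p under 0.05 (6.2% of all genes), and DESeq2 called cbd-1, vit-1 and bli-2 as higher (2.49% of all genes). cbd-1 lost its call without rWQS019, bli-2 without rWQS042 and without rWQS045, and vit-1 without each library but rWQS045. Their summed level was 88.3 and 158 CPM in the mutant, against 32.3 and 36.2 CPM in wild type, and their median log2 fold change was 0.98. The yolk protein genes vit-2, vit-3 and vit-5 and the adult collagen gene col-19 were below 0.2 CPM in every library. The other yolk protein genes were higher in at least 1 library. vit-1 was at 7.25 and 4.03 CPM in the mutant, against 1.7 and 1.66 CPM in wild type. vit-4 reached 0.279 CPM in rWQS029, and vit-6 reached 0.672 CPM in rWQS045. The part of developmental stage in the level of the 3 genes was not tested.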

How the data were processed

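Poly(A) RNA-seq libraries of L3 larvae were prepared with the TruSeq RNA kit, which does not mark strand, and aligned with STAR to ce10 with annotation WS235. The authors deposited raw counts per gene, not normalized or pooled. The methods name HTSeq for counting and the submitters' processing notes name featureCounts. Versions are not given in the sources used here. Columns show genotype but no replicate number, and 0 columns were left out. No label says that the libraries are separate cultures: the p-values cover the spread among these 4 libraries, possibly technical.

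Counts were tested with edgeR 4.0.16 (R 4.3.3): quasi-likelihood, genotype as the only term, filterByExpr (15978 genes), TMM factors and Benjamini-Hochberg adjustment over all tested genes, with an adjusted p under 0.05 as threshold. Because edgeR called 0 genes, DESeq2 1.42.0, the first alternative and the tool of the methods, defines "rose" here. Both were also run on simulated counts that had the same spread in both genotypes. Since the real mutant libraries differed more than the wild type libraries, that run does not decide between the tools here. CPM are counts per 1000000 of the library total times its TMM factor, and RPKM are CPM per kilobase of exon. SE is the log2 fold change divided by the square root of the edgeR F statistic. Other alternatives were a likelihood ratio test, RLE, upper-quartile or no scaling factors, no filter, other prior counts, windows of 25 and 100 kb, and leaving out each library, where the lone library of a genotype was assumed to vary like the other genotype.

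Positions and exon lengths are those of the Ensembl annotation of WBcel235, matched by WormBase identifier (46449 of 46748 genes); the count tables hold no coordinates. Pseudogenes without a symbol are called by the sequence name of their transcript in that annotation. The 3 genes and the gene lists were chosen with earlier results of these data known. The genes named are the 3, genes of the 50 kb window, the 5 nearest in pattern to each, met-2 and set-25, and up to 4 genes per list by edgeR p. morc-1, nrde-2, set-26, set-32, vit-2, vit-3, vit-4, vit-5, vit-6 and col-19 were named after their values were seen. Fold changes of the 3 genes carry no p, since the same contrast chose them.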

Additional observations from a re-analysis of the deposited data

How the results depend on the processing

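The log2 fold changes of set-24, Y57A10A.2 and Y57A10A.5 were positive under every alternative run. With all libraries they moved by less than the spread between libraries under DESeq2, the likelihood ratio test, other scaling factors, no filter and other prior counts (2.08 to 2.17, 2.97 to 3.06 and 2.09 to 2.19). With a library left out they ran from 1.90 to 2.39, from 2.96 to 3.14 and from 1.76 to 2.52.

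RLE, upper-quartile or no scaling factors left the edgeR counts at 0. Over all genes, 412 calls were higher and 136 lower in DESeq2, 432 and 123 under the likelihood ratio test and 813 and 410 with no filter, and with a library left out they ran from 0 to 802 and from 0 to 622 over both tools. Of the window neighbours, 5, 4 and 6 were called as higher in the same order of alternatives (0 to 6 higher and 0 to 1 lower with a library left out), and edgeR called 0 with windows of 25 or 100 kb. Of SET domain genes 3, 3 and 3 were called as higher (0 to 4 with a library left out), of germline inheritance genes 6, 6 and 6 (0 to 8), of germline markers 11, 10 and 14 (0 to 19), of later-stage markers 3, 2 and 3 (0 to 3), and of sperm markers 0, 0 and 1. The cause of these differences was not tested. No paired analysis was possible because the columns carry no replicate numbers that tie them to the labels.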
